A study of Mus musculus with 4 samples.

Results

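The T zone spots of a mouse lymph node are the array spots to which the authors gave the region name T zone in their deposited table of spots. There were 1834 of them among 7271 spots, with 432 of 1650 in section A, 484 of 1876 in section B, 456 of 1858 in section C and 462 of 1887 in section D. The name follows expression clusters. All 1834 spots lay in 1 cluster at the coarser of the deposited clusterings, together with all 158 spots of GC_T Border, the rim between germinal centre and T zone. At the finer clustering 1832 of the 1834 shared a cluster. Levels of T zone against other regions are therefore given as descriptions with no test. Position on the array is not known to have entered the name, apart from the rim spots set aside as borders, so T zone spots were compared by what they touch and by how far they lie from the region named Medulla.

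The series asks where plasma cells arise from germinal centre B cells. The tissue was a draining lymph node of mice immunized 14 days and gavaged 3 days before it was taken. The sources used here do not give the antigen, the gavaged agent, the strain, the age or how many animals were used. The deposited spot labels of all 4 sections end in eYFP. Spatial RNA capture (Visium) was run on 4 frozen sections, each 10 µm thick and 50 µm apart in depth, with 18 min of permeabilization and 16 cycles of PCR. All 4 sections form 1 group, so there is no treated and untreated arm. They are serial sections under 1 sample ID, so SDs and p-values reflect the spread among them alone, which may be technical.

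The T zone, or paracortex, is the part of a lymph node where T cells scan dendritic cells for antigen. Its fibroblastic reticular cells make CCL19 and CCL21, the chemokines that draw in cells bearing the receptor CCR7. B cells sit in follicles around it, and germinal centres grow inside those follicles. The medulla is the inner compartment of cords and sinuses toward the exit of the node, where plasma cells and macrophages gather. Lymph node stroma holds several non-endothelial subsets besides the T zone reticular cells, among them subsets named after Inmt, Nr4a1 and CD34, the last found in the outer coat of larger vessels.

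The table gives each spot's UMIs (unique molecular identifiers, a count of captured transcripts), its genes with a count, the shares of its counts that mitochondrial and ribosomal genes took, in percent, and 6 scores. Of these, pc_markers was taken as a score of plasma cell markers. Mo_GC_vs_Mem was taken to score germinal centre against memory B cells and is called the germinal centre score for short. Its name is a contrast, so a higher value need not mean more germinal centre cells. Mo_Nr4a1_SC, Mo_Inmt_SC, Mo_Nr4a1Inmt_SC and Mo_CD34_SC were taken as stromal cell scores. These readings come from the names, and no gene list of a score was seen here. Scores have no unit and no true zero, so a negative value does not mean absence and no ratios of scores are given. The table holds no single genes, so Cd3e, Cd4, Cd8a, Ccr7, Ccl21a and Ccl19 could not be set against the name T zone, and no T cell score was among the 6. A spot covers several cells, so a spot at an edge may lie over both regions. Fewer cells of a type and less RNA per cell cannot be told apart in such spots.

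T zone took much the same share of every section and lay in a few compact bodies. Section A had 26.2% T zone spots (exact 95% binomial interval 24.1 to 28.4%) and section B 25.8% (23.8 to 27.8%). Section C had 24.5% (22.6 to 26.6%), as did section D (22.6 to 26.5%). Sections A, B, C and D held 9, 11, 11 and 11 connected patches, of which exactly 4 in each section had 10 or more spots. The largest patch held 157, 165, 178 and 169 spots, and patches under 10 spots held 8, 13, 11 and 7 spots. Every section consists of 2 separate pieces of tissue, called upper and lower here by array row. T zone made up 28.0% ± 1.33 of the spots of the upper piece and 21.9% ± 1.25 of the lower (SD, n = 4), with the upper share higher in 4 of 4 sections.

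The medulla was the region T zone bordered most. Of all pairs formed by a T zone spot and an adjacent spot, 83.0% ± 0.710 joined it to another T zone spot and 8.996% ± 1.43 to Medulla. Among the pairs that left the T zone, Medulla took 52.7% ± 7.48, and 0 pairs reached DZ or LZ, the dark and light zones of the germinal centres. In all, 496 spots touched Medulla (105, 114, 144 and 133 by section, 27.1% ± 3.799 of T zone spots) and 186 touched B zone (58, 54, 48 and 26, 10.2% ± 3.28). Both were touched by 54 spots, which count in each class. Inner spots, with T zone on every side, numbered 1029 (248, 272, 244 and 265, 56.1% ± 1.83). A further 144 spots touched GC_T Border but neither Medulla nor B zone and 33 touched only other borders. Across these classes, 21 spots had no T zone neighbour at all.

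**Figure D1:**
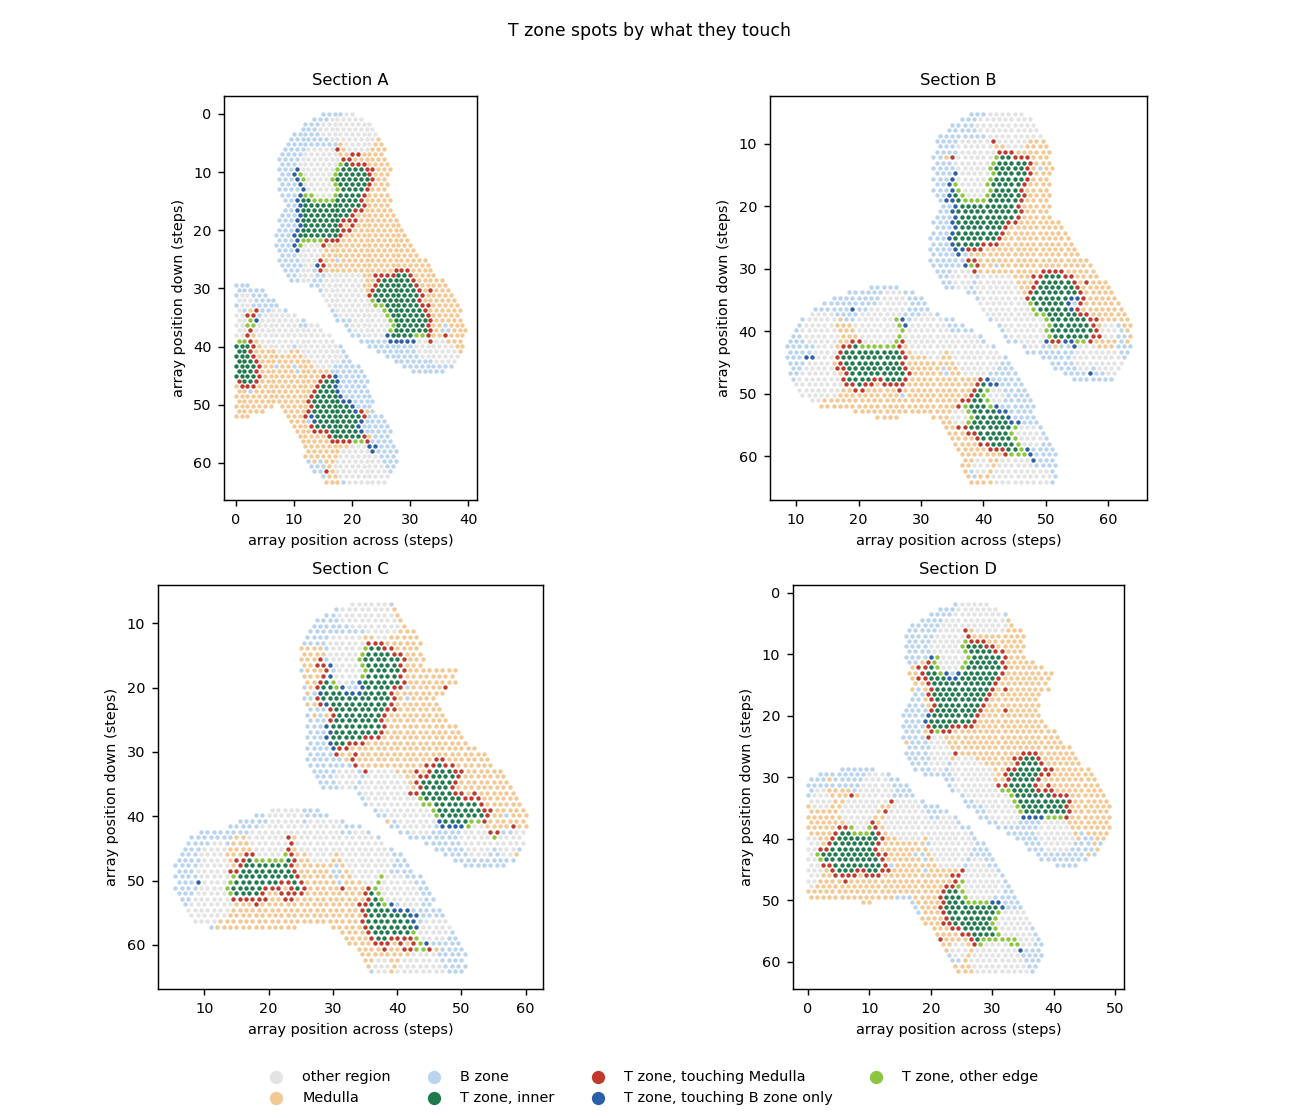
Position of every spot on the array in sections A to D, with both axes in array steps, coloured by region for Medulla and B zone and by contact for T zone spots. The 4 larger T zone bodies of each section, 2 in each piece of tissue, are inner spots framed by spots touching Medulla on the side of the medulla and by spots touching B zone or other borders on the side of the follicles.

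The sections differed in depth. Median UMIs per T zone spot were 8327.5, 10444.5, 3315.5 and 3848 in sections A to D. Sections C and D are the shallow ones throughout. Single spots ranged from 874 to 25314 UMIs, and 2 spots, both in section D, had fewer than 1000. T zone took 25.6% and 25.5% of all UMIs in sections A and B, and 20.3% and 22.6% in C and D.

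T zone spots had a ribosomal percent as high as B zone and a mitochondrial percent below both B zone and Medulla. Ribosomal counts made up 26.3, 24.9, 21.9 and 21.8% in sections A to D, a mean of 23.7% ± 2.25 (SD, n = 4), which ranked T zone first of the 8 regions in section B and second in the others. Against Medulla, at 17.1% ± 1.03, T zone was higher by 6.66 points ± 1.96 in 4 of 4 sections. Against B zone the difference was -0.0152 points ± 0.582, above 0 in 1 of 4, which is within the spread between sections. As residuals from a line on log10 UMIs over all spots of a section its sign turned, to 0.666 points, as it did with medians over spots, to 0.544. GC_T Border, which shares the T zone's coarse cluster, was lower by 1.77 points ± 0.392 in 4 of 4.

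Mitochondrial counts made up 5.30, 4.05, 3.35 and 3.71% of T zone counts, a mean of 4.10% ± 0.851. Medulla was at 5.58% ± 0.592 and B zone at 5.23% ± 0.473, and the differences of T zone from them were -1.48 points ± 0.605 and -1.13 points ± 0.560, below 0 in 4 of 4 sections each. T zone lay in the middle of the regions, with GC_Medulla Border at 3.86%, GC_T Border at 3.76% and DZ at 3.26% below it. Mean UMIs per spot, 6697 ± 3536, ranked sixth of 8 in every section. T zone minus Medulla was 2392 ± 1566 UMIs and T zone minus B zone -1974 ± 578, each with 1 direction in 4 of 4. As a ratio, T zone spots held 1.57 ± 0.319 times the UMIs of Medulla spots and 0.741 ± 0.119 times those of B zone spots.

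The plasma cell marker score placed T zone between medulla and follicle. Per section it averaged 0.214, 0.233, 0.181 and 0.190, with a difference of -0.0744 ± 0.0399 from Medulla and 0.0402 ± 0.00569 from B zone, each with 1 direction in 4 of 4 sections. The gap to Medulla was -0.0843 and -0.127 in the deep sections A and B, and -0.0459 and -0.0406 in the shallow C and D. T zone was also below GC_T Border, with a difference of -0.0234 ± 0.00715, below 0 in 4 of 4 sections. GC_Medulla Border had the highest mean of all regions in every section, at 0.308 ± 0.0608 over sections. The stromal scores did not all place T zone alike. Mo_Nr4a1_SC, Mo_Inmt_SC and Mo_Nr4a1Inmt_SC were lower in T zone than in B zone in 4 of 4 sections, with differences of -0.00861 ± 0.00113, -0.00600 ± 0.00264 and -0.00685 ± 0.00116. Mo_CD34_SC was higher in T zone than in B zone, by 0.0101 ± 0.00136 in 4 of 4.

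The same comparison was made between inner spots only, those with their own region on every side. Inner T zone (1029 spots) differed from inner B zone (610 spots) by 0.0388 ± 0.00569 in pc_markers and -0.0355 ± 0.00674 in Mo_GC_vs_Mem. The difference was -0.0138 ± 0.00154 in Mo_Nr4a1_SC, -0.0114 ± 0.00197 in Mo_Inmt_SC and 0.00545 ± 0.00186 in Mo_CD34_SC. All 5 had 1 direction in 4 of 4 sections. With edge spots left out, the first 2 stromal differences were larger and the Mo_CD34_SC difference smaller than over all spots.

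**Figure D2:**
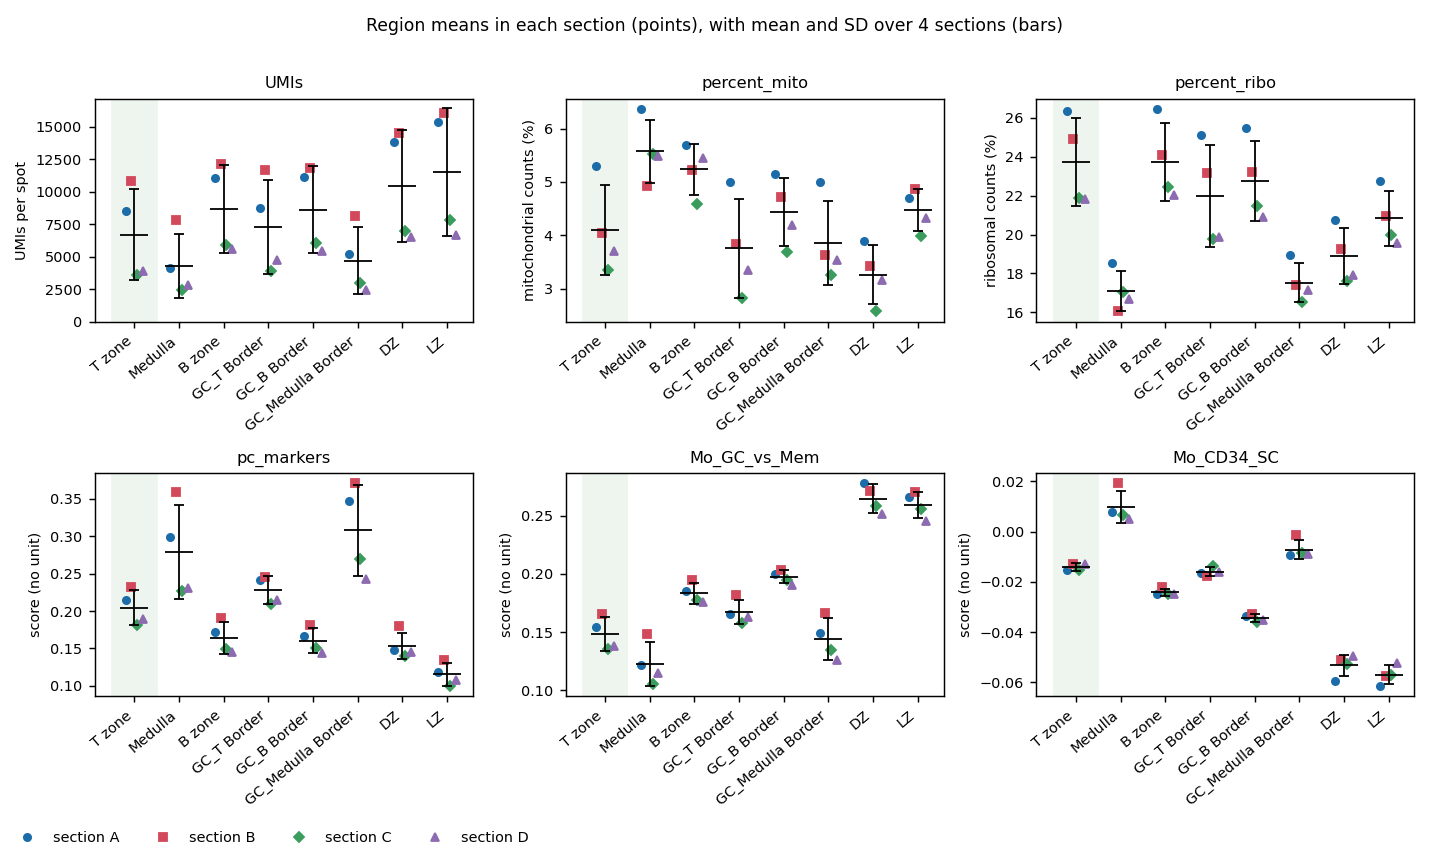
Mean over the spots of each region in sections A to D (points) with the mean and SD over the 4 sections (bars), for UMIs, mitochondrial and ribosomal percent and 3 scores. The shaded T zone column is high in ribosomal percent, at 23.7% against 17.1% in Medulla, and lies between Medulla and B zone in pc_markers and Mo_CD34_SC.

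At the edge toward the medulla T zone spots differed from those inside. Spots touching Medulla had fewer UMIs, a lower ribosomal percent and higher stromal scores than inner T zone spots, in 4 of 4 sections for each. Mean UMIs per spot were 6484, 9591, 3032 and 3447 in the contact spots of sections A to D, against 9187, 11351, 3765 and 4041 in inner spots. The contact spots were the lower in each section, with a mean difference of -1447 ± 985 UMIs, and genes per spot differed by -300.5 ± 163.

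Ribosomal counts were 23.97, 22.4, 20.6 and 20.4% at the Medulla edge and 27.5, 26.2, 22.7 and 22.8% inside, a difference of -2.94 points ± 0.868. It was -3.11 points within the upper piece of tissue and -2.59 within the lower. Mitochondrial counts were 5.65, 4.16, 3.56 and 4.02% at the edge and 5.29, 4.08, 3.34 and 3.65% inside, a difference of 0.257 points ± 0.141. The mitochondrial difference was 0.476 points within the upper piece, above 0 in 4 of 4 sections, and 0.0173 points within the lower, above 0 in 2 of 4.

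All 4 stromal scores were higher at the Medulla edge. Mo_Inmt_SC averaged -0.0257, -0.0339, -0.0346 and -0.0313 in contact spots and -0.0501, -0.0525, -0.0464 and -0.0434 in inner spots. Contact and inner means did not overlap across the 4 sections, and the difference was 0.0167 ± 0.00600. Mo_Nr4a1_SC averaged 0.00202, -0.00215, -0.0122 and -0.00911 against -0.0208, -0.0256, -0.0223 and -0.0193, a difference of 0.0166 ± 0.00752 and again without overlap. Mo_Nr4a1Inmt_SC differed by 0.0136 ± 0.00600 and Mo_CD34_SC by 0.0118 ± 0.00375. Each was above 0 in 4 of 4 sections and within either piece of tissue. In sections A and B, the deep ones, all 4 differences were larger than in C and D.

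The plasma cell marker score was only slightly higher at this edge. It averaged 0.222, 0.250, 0.183 and 0.190 in contact spots and 0.210, 0.225, 0.179 and 0.189 in inner spots. The difference of 0.0108 ± 0.0104 had 1 direction in 4 of 4 sections, but its size ran from 0.00116 in section D to 0.0247 in section B, and without section B it was 0.00618. The lower piece gave 0.0161 in 4 of 4 sections, and the upper 0.00670 in 3 of 4. The germinal centre score differed by -0.00483 ± 0.00402, below 0 in 3 of 4. This score ran with depth. As residuals from a line fitted to log10 UMIs over the T zone spots of each section, its difference was 0.00341, above 0 in 4 of 4. On the same residuals pc_markers differed by 0.0160, Mo_Nr4a1_SC by 0.0140, Mo_Inmt_SC by 0.0129 and Mo_CD34_SC by 0.0101, each in 4 of 4. The Medulla edge was not alone in a higher pc_markers score. The 144 T zone spots touching GC_T Border but neither Medulla nor B zone averaged 0.217, 0.229, 0.190 and 0.205 in sections A to D. Each value was above the inner mean of its section, a difference that was not tested.

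With 3 or more Medulla neighbours all 4 stromal scores were higher than with 0, in 4 of 4 sections. T zone spots with 0, 1, 2 and 3 or more Medulla neighbours numbered 1338, 203, 144 and 149. Mo_Inmt_SC averaged -0.0477, -0.0375, -0.0305 and -0.0245 in that order, and Mo_CD34_SC -0.0172, -0.00995, -0.00408 and -0.000473. These are means over sections, and the order between classes did not hold in each. Mo_Nr4a1_SC in section C was -0.0119 with 1 neighbour and -0.0191 with 2, and Mo_Inmt_SC in section A was -0.0202 with 2 and -0.0219 with 3 or more. The plasma cell marker score went from 0.202 with 0 Medulla neighbours to 0.209 with 1, and was 0.214 with 2 and 0.212 with 3 or more. Ribosomal percent ran the other way, at 24.4, 22.5, 21.9 and 20.97%, as did mean UMIs, at 7062, 5991, 5608 and 5172. The part of depth in the stromal order was not tested.

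The edge toward the follicle differed from the inner T zone in other ways. Spots touching B zone had a higher germinal centre score, at 0.162, 0.174, 0.146 and 0.145 against 0.155, 0.164, 0.135 and 0.137 inside, a difference of 0.00878 ± 0.00244 in 4 of 4 sections. Their mitochondrial percent differed by -0.258 points ± 0.0949 and their ribosomal percent by -2.35 points ± 0.436, each below 0 in 4 of 4. UMIs differed by -553.9 ± 626, from -1280 in section A to -13.5 in section D, and by -311.8 without section A. The plasma cell marker score differed by 0.00172 ± 0.00705, above 0 in 2 of 4 sections, which is within the spread between sections.

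For 3 of 4 stromal scores the difference at the B zone edge depended on the 54 spots that also touched Medulla. With all 186 spots Mo_Nr4a1_SC was higher than inside by 0.00854 ± 0.00251, Mo_Inmt_SC by 0.00584 ± 0.00273, Mo_Nr4a1Inmt_SC by 0.00496 ± 0.00338 and Mo_CD34_SC by 0.00364 ± 0.00130, in 4 of 4 sections each. Without those 54 spots the values were 0.00632 in 4 of 4, 0.00164 in 3 of 4, 0.00101 in 2 of 4 and -0.000367 in 2 of 4. The germinal centre score difference was 0.0131 in 4 of 4 without them, and the ribosomal difference -2.003 points in 4 of 4. The mitochondrial difference was then -0.419 points in 4 of 4, and that of UMIs -176.1, below 0 in 2 of 4.

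Set directly against each other, with the spots touching both left out, the edges differed in all 10 columns in 4 of 4 sections. Medulla contact spots had a pc_markers score higher by 0.0106 ± 0.00404 than B zone contact spots, and the difference in Mo_GC_vs_Mem was -0.0188 ± 0.00577. The stromal scores were higher by 0.0109 ± 0.00665 (Mo_Nr4a1_SC), 0.0153 ± 0.00349 (Mo_Inmt_SC), 0.0127 ± 0.00408 (Mo_Nr4a1Inmt_SC) and 0.0123 ± 0.00406 (Mo_CD34_SC). Mitochondrial percent was higher by 0.697 points ± 0.289 at the Medulla edge, and the ribosomal difference was -0.921 points ± 0.308. The UMI difference was -1280 ± 551.

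Of the 30 contact comparisons, 27 had 1 direction in 4 of 4 sections. For each, the 4 within-section differences entered an exact sign-flip permutation test, two-sided, with 16 sign assignments and a smallest possible p = 0.13. After Benjamini-Hochberg adjustment over the 30, the exact test gave values from 0.139 to 0.75, so no contact difference passed 0.05 and none could have.

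**Figure D3:**
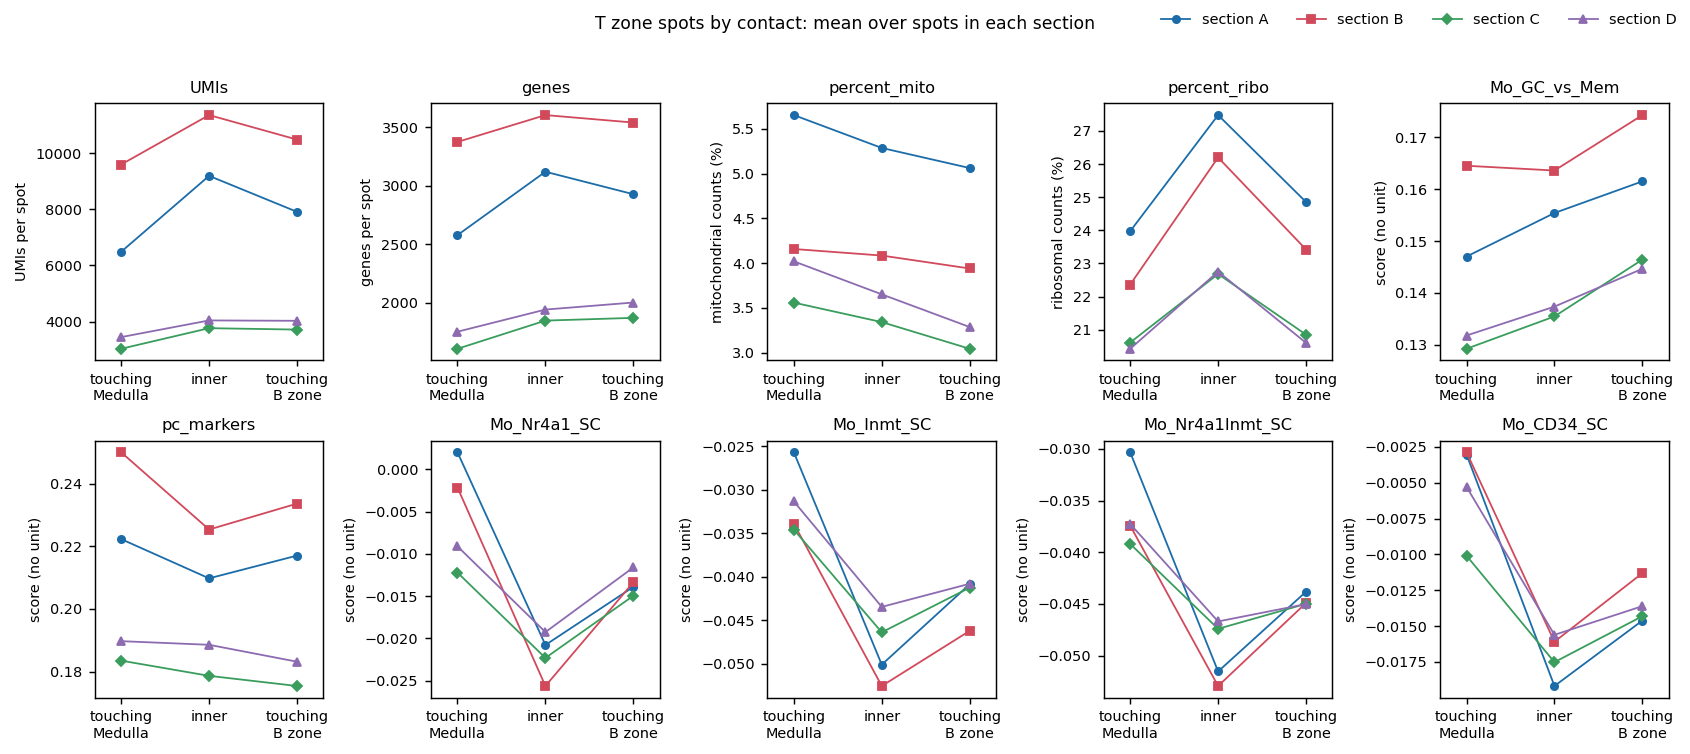
Mean over T zone spots touching Medulla, inner T zone spots and T zone spots touching B zone, 1 line for each section, for the 10 deposited columns (score panels have no unit; no axis starts at 0). Ribosomal percent peaks in inner spots and the 4 stromal scores are lowest there, while mitochondrial percent falls and Mo_GC_vs_Mem mostly climbs from the Medulla edge to the B zone edge. Spots touching both regions count in both edge classes. Without them Mo_Inmt_SC, Mo_Nr4a1Inmt_SC and Mo_CD34_SC had no direction shared by all sections between B zone contact and inner spots.

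Away from Medulla the plasma cell marker score was flat beyond the contact spots in its mean over sections, but not in every section. T zone spots were grouped by array steps to the nearest Medulla spot, where 1 step means contact, with 496, 412, 343, 248 and 158 spots at 1 to 5 steps and 177 at 6 or more. The farthest T zone spot lay 10, 9, 7 and 9 steps away in sections A to D. Mean pc_markers was 0.211 ± 0.0309 at 1 step, then 0.202 at 2, 3, 4 and 5 steps, and 0.205 ± 0.01998 at 6 or more. Between 1 and 2 steps it differed by 0.00738, 0.0192, 0.00693 and 0.00575 in sections A to D, a mean of 0.00982 ± 0.00630, with 0.00669 without section B and 0.00439 with medians over spots. Between 2 and 3 steps the difference was -0.000753 ± 0.00736, above 0 in 2 of 4, and the later steps had no shared direction either. Section D ran against the others at the far end, where spots at 6 or more steps were higher than contact spots by 0.0117. It rose from 0.184 at 2 steps through 0.187, 0.194 and 0.198 to 0.201 at 6 or more. In section C the score at 3 steps, 0.187, was above its contact level of 0.183. Medulla was not the only region from which the score fell with steps. By steps to the nearest GC_T Border spot its mean was 0.212 at 1, 0.199 at 4 and 0.206 at 6 or more. Between 1 and 4 of these steps it went from 0.222 to 0.204 in section A and 0.232 to 0.231 in B. In C it went from 0.191 to 0.175 and in D from 0.203 to 0.185, and this profile was not tested.

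The stromal scores were lower with each of the steps from 1 to 3. From 1 to 3 steps Mo_Inmt_SC went from -0.0314 through -0.0422 to -0.0498, and Mo_CD34_SC from -0.00532 through -0.0141 to -0.0186. The difference between 1 and 2 steps was 0.0108 ± 0.00462 in Mo_Inmt_SC, 0.01001 ± 0.00561 in Mo_Nr4a1Inmt_SC and 0.00878 ± 0.00317 in Mo_CD34_SC, in 4 of 4 sections each. In Mo_Nr4a1_SC it was 0.0117 ± 0.00922, above 0 in 3 of 4, with section C at -1.93e-06. Between 2 and 3 steps the scores differed by 0.00525 ± 0.00368 (Mo_Nr4a1_SC), 0.00767 ± 0.00107 (Mo_Inmt_SC), 0.00549 ± 0.00203 (Mo_Nr4a1Inmt_SC) and 0.00454 ± 0.00128 (Mo_CD34_SC), again in 4 of 4.

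From 3 steps on the sections no longer ran together. Neither the difference between 3 and 4 steps nor that between 4 and 5 steps had a shared direction in any of the 4 stromal scores. At 6 or more steps Mo_Inmt_SC was -0.0496 ± 0.00685 and Mo_CD34_SC -0.0173 ± 0.00231. The step by which 50% of the difference between contact spots and spots at 6 or more steps had passed was 2 in all sections for Mo_Nr4a1Inmt_SC and Mo_CD34_SC. It was 2 in 3 of 4 sections for Mo_Nr4a1_SC, with 3 in section C, and for Mo_Inmt_SC, with 3 in section D. In section C the far end of this measure rests on 20 spots, which were higher again than spots at 3 steps. Mo_Inmt_SC there was -0.0507 at 3 steps and -0.0402 at 6 or more. Mo_Nr4a1Inmt_SC was -0.0512 and -0.0455, and Mo_CD34_SC -0.0193 and -0.0152, so the steps of section C are loosely set. For Mo_Nr4a1_SC in section D the step has little meaning, since spots at 6 or more steps, at -0.0101, were back near the contact level of -0.00911. Contact spots minus spots at 6 or more steps was 0.0247, 0.0297, 0.00989 and 0.000947 in that score in sections A to D. For pc_markers the step by which 50% had passed was 2 in sections A, B and C, and section D had no such step. In section C this step has little meaning either. Contact spots there were above spots at 6 or more steps by only 0.00352, and spots at 3 steps were above contact spots. Of the 25 step comparisons, 12 had 1 direction in 4 of 4 sections, and the smallest adjusted p (exact sign-flip test, Benjamini-Hochberg) was 0.260.

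Depth and composition moved along the same steps. Mean UMIs were 5639 at 1 step, 6336 at 2, 6938 at 3, 7095 at 4, 7622 at 5 and 8264 at 6 or more, a ratio of 1.49 ± 0.140 between the last and the first. Ribosomal percent went from 21.8% at 1 step to 23.97% at 2, 24.6% at 3 and 24.9% at 4, and was 24.1% at 6 or more. Mitochondrial percent went from 4.35% at 1 step to 3.68% at 6 or more, a difference of -0.665 points ± 0.401 with the far spots lower in 4 of 4 sections. Mo_GC_vs_Mem went from 0.143 to 0.162, higher in 4 of 4 by 0.0188 ± 0.00939. The far spots were also nearer to follicles. Of the spots at 6 or more steps, 34.3% ± 14.3 touched B zone and 22.5% ± 3.75 touched GC_T Border, against 10.98% ± 3.53 and 6.59% ± 2.38 at 1 step. The mix of tissue pieces differed too. Of the spots at 6 or more steps, 98.5, 78.8, 80 and 40% lay in the upper piece in sections A to D. At 1 step these shares were 60, 56.1, 56.9 and 57.9%. T zone spots of the upper piece were lower in pc_markers, Mo_Nr4a1_SC and Mo_Inmt_SC than those of the lower in 4 of 4 sections. What part depth, these contacts and the pieces have in the profiles was not tested.

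**Figure D4:**
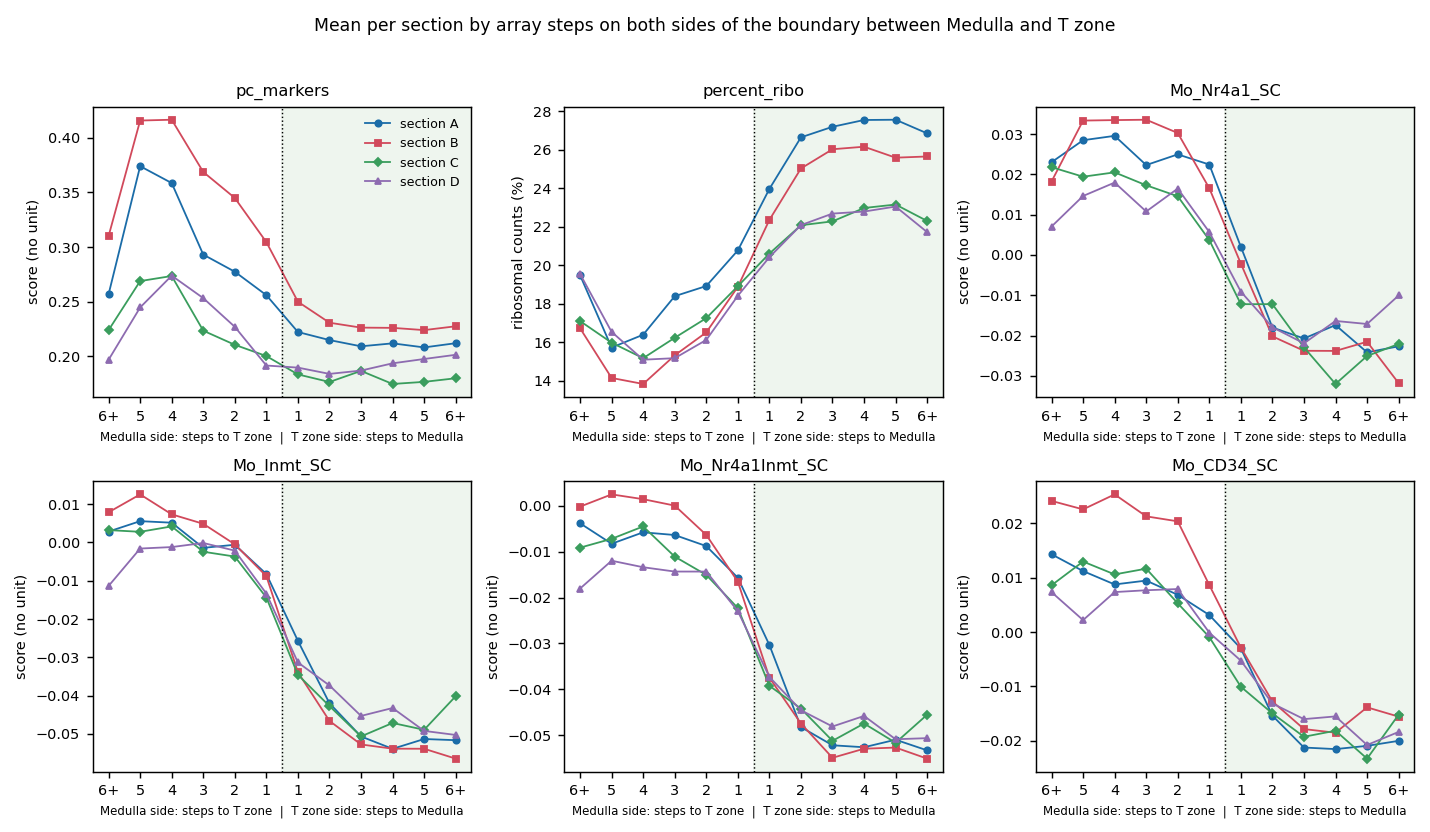
Mean per section by array steps on both sides of the boundary, with Medulla spots by steps to the nearest T zone spot on the left and T zone spots (shaded) by steps to the nearest Medulla spot on the right, for pc_markers, ribosomal percent and the 4 stromal scores. On the T zone side most stromal lines drop over steps 1 to 3 and then run without a shared direction. In Mo_Nr4a1_SC section C is flat from step 1 to 2 and lowest at step 4, and section D is back near its contact level at 6 or more, while mean pc_markers is nearly flat from step 2, at 0.202.

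Across the boundary itself, contact spots on the Medulla side were compared with contact spots on the T zone side, as a description. The 523 Medulla spots touching T zone averaged 0.238 in pc_markers against 0.211 in the 496 T zone spots touching Medulla. The gap was 0.0337, 0.0546, 0.0168 and 0.00191 in sections A to D. It was wide in the deep sections and nearly nil in section D. For Mo_Inmt_SC the gap was 0.0202 ± 0.00349 and for Mo_Nr4a1_SC 0.0175 ± 0.00257, with all sections alike. Medulla minus T zone was -1157 ± 648 in UMIs and -2.59 points ± 0.875 in ribosomal percent.

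Inside the medulla the plasma cell marker score was higher at 4 or 5 steps from T zone than beside it. It was 0.265 at 2 steps into Medulla, 0.285 at 3, 0.331 at 4 and 0.326 at 5, and 0.247 at 6 or more steps, where only 131 spots lay. Spots at 4 and at 5 steps were above the contact spots in 4 of 4 sections. Mo_Inmt_SC in Medulla was -0.0112 at 1 step from T zone, -0.00172 at 2 and 0.000230 at 3 steps.

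Some T zone spots reached medullary levels of the plasma cell marker score, far more of them in the shallow sections. A T zone spot was counted as high when it was at or above the median of the Medulla spots of its section. That held for 309 of 1834 spots, or 6.48, 0.826, 30.04 and 30.3% by section (A to D). Among spots touching Medulla the shares were 14.3, 1.75, 33.3 and 33.1%, and among inner spots 4.44, 0.368, 29.1 and 28.7%. B zone spots passed the same mark in 1.89, 0.285, 9.40 and 5.23% of cases. The share was higher at the Medulla edge than inside in 4 of 4 sections, by an amount smaller than the difference between sections. Within T zone, pc_markers spread with an SD over spots of 0.0366, 0.0369, 0.0432 and 0.0410, and median UMIs in the sections with the high shares were 3315.5 and 3848. The part of depth in these shares was not tested.

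The stromal counterparts of such spots lay mostly at the edge. At or above the Medulla median of Mo_Inmt_SC were 80 T zone spots, 50 of them touching Medulla and 23 inner, which is 9.99% ± 5.29 of the contact spots and 2.22% ± 2.38 of the inner spots. The share was 4.39% ± 2.85 over all T zone spots and 4.05% ± 3.67 over B zone spots. For Mo_CD34_SC there were 231, with 25.5% ± 13.5 of the contact spots and 7.84% ± 4.86 of the inner spots. Here the share was 12.7% ± 7.07 over all T zone spots and 5.27% ± 2.20 over B zone spots. The share in Medulla contact spots was higher than in inner spots in 4 of 4 sections for both scores. For Mo_Nr4a1_SC the mean share was lower over all T zone spots, at 8.25% ± 5.67, than over B zone spots, at 11.3% ± 9.46. So it was for Mo_Nr4a1Inmt_SC, at 4.76% ± 3.58 and 6.54% ± 6.25. T zone spots touching B zone, some of which also touched Medulla, had shares of 4.29% ± 2.47 for Mo_Inmt_SC and 16.2% ± 11.2 for Mo_CD34_SC.

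**Figure D5:**
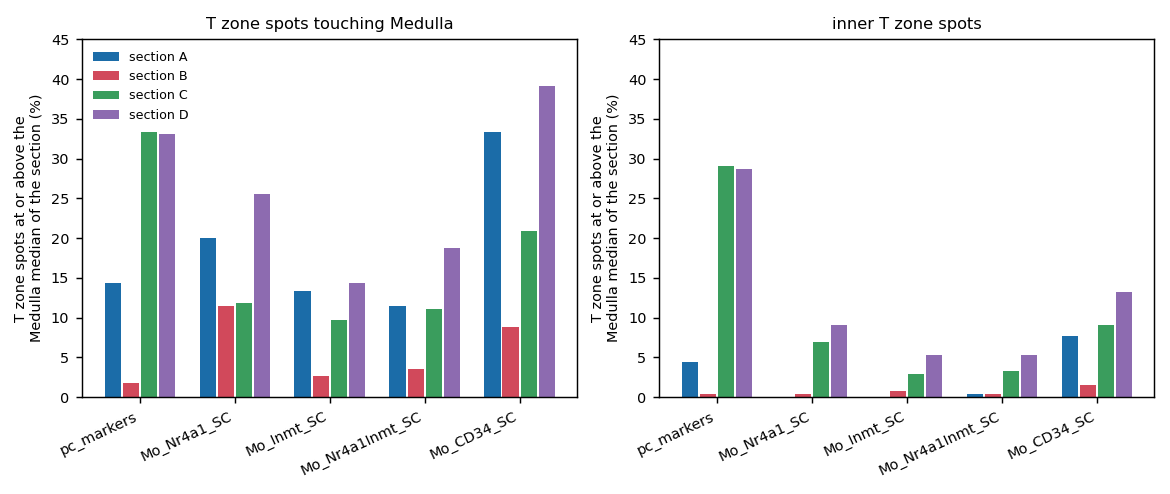
Percent of T zone spots at or above the median of the Medulla spots of the same section, for 5 scores, in spots touching Medulla (left) and inner spots (right), 1 bar for each section and axes from 0. For pc_markers sections C and D stand near 30% in both panels while A and B are low, and for the stromal scores the bars are taller at the Medulla edge.

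The upper and lower pieces of tissue held T zones of slightly different score levels. In pc_markers upper minus lower was -0.00386, -0.00374, -0.00384 and -0.0162 in sections A to D. The same difference was -0.00525 ± 0.00322 in Mo_Nr4a1_SC and -0.00418 ± 0.00225 in Mo_Inmt_SC, and ribosomal percent was higher by 0.731 points ± 0.436, each in 4 of 4 sections. Depth was not matched between the pieces. In section B the upper T zone averaged 13094 UMIs per spot and the lower 7434, while in section D the values were 3800 and 4092. It was assumed, not checked, that upper and lower are the same tissue from section to section.

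Within T zone, scores were related over the spots of each section by Spearman's rho, as a description. Spots of a section share a library, and UMIs enter all columns, so no p is given. The 4 stromal scores ran together, from 0.274 ± 0.128 for Mo_Nr4a1_SC with Mo_CD34_SC to 0.565 ± 0.103 for Mo_Inmt_SC with Mo_Nr4a1Inmt_SC, whose names overlap. All of them ran against ribosomal percent, at -0.379 ± 0.148 for Mo_Inmt_SC over 1834 spots and -0.251 ± 0.167 over the 1029 inner spots. Of the stromal scores, pc_markers had its highest rho with Mo_CD34_SC, at 0.315, 0.349, 0.165 and 0.104 in sections A to D, and at 0.223 ± 0.0966 over inner spots.

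Depth and scores were tied to different degrees. Mo_GC_vs_Mem followed UMIs at 0.743 ± 0.101. For pc_markers with UMIs rho was 0.0612 and 0.0162 in the deep sections A and B, and 0.344 and 0.405 in the shallow C and D. UMIs and mitochondrial percent had a rho of -0.268, 0.662, 0.0975 and -0.0284. The high value of section B became 0.240 within its upper and 0.226 within its lower piece, whose mean UMIs, 13094 and 7434, and mitochondrial percents, 4.57 and 3.27%, differed together.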

How the data were processed

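All values came from 1 deposited table with a line per spot. The counts (UMIs and genes per spot) are the authors' raw values. The percent columns (mitochondrial, ribosomal) and the score columns were used as the authors deposited them. Mouse build mm10, Seurat 4.2.1 and Space Ranger 1.3.1 are named in the submitters' processing notes. The sources used here do not give parameters, the spot filter, the rule for region names or the gene lists of the scores. The regions, columns and comparisons were chosen with earlier results of these data known. The table holds no single genes, so by the naming rule every column is named and no gene is.

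Each region, contact class or step was averaged over its spots within a section, differences were formed within sections, and the section was the unit (n = 4). Neighbours are spots 1 step apart on the hexagonal array, where an interior spot has 6. The counts by number of Medulla neighbours, high spots, tissue pieces, the Medulla side, the surroundings of each step and the comparison of inner spots between regions were added after first looks at the data. Exact sign-flip tests had Benjamini-Hochberg adjustment over 30 contact and 25 step comparisons. Exact binomial intervals (95%) cover counting error only. Scripts ran in Python 3.11.15 with numpy 2.4.6, pandas 2.3.3 and scipy 1.17.1, and the contact and step functions were tested on simulated data on the real spot positions. Alternatives tried were a minimum of 1000 UMIs, medians, percentile ranks, a linear fit on log10 UMIs, other definitions of contact, inner spots and medulla side, each tissue piece, and leaving out each section. Alignment files of the slide were not used here.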

Additional observations from a re-analysis of the deposited data

Results flagged for a closer look

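In 5 of 75 groups of 4 section values, 1 section stood apart from the others by Dixon's criterion, and chance marks about 1 in 20 such groups. Genes per spot at the Medulla edge minus inner spots was -541.9 in section A and between -241.0 and -189.2 in the others. The Mo_Nr4a1_SC difference of B zone contact minus inner spots was 0.0123 in section B and 0.00688 to 0.00766 elsewhere. The pc_markers difference between 1 and 2 steps from Medulla was 0.0192 in section B, against 0.00575 to 0.00738. Between 2 and 3 steps, Mo_Nr4a1_SC differed by 0.0107 in section C and by 0.00272 to 0.00399 in the rest. The Mo_CD34_SC difference of T zone minus B zone was 0.0122 in section D and 0.00944 to 0.00950 in A, B and C. No cause was tested for these. In 20 pairs of contact differences taken within the upper and the lower piece of tissue, 0 had all sections of one piece opposite to all sections of the other.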

How the results depend on the processing

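Over 75 results and 875 alternative values, 812 were counted as kept, 51 as reversed and 12 as moved. For contact and step differences, and for values on percentile ranks, kept means the same sign of the mean, whatever its size. For T zone against Medulla or B zone it means a shift under the SD between sections. No contact or step result could pass 0.05 under any setting, so direction is what was compared. Of 148 alternatives of Medulla contact minus inner spots 1 reversed (Mo_GC_vs_Mem after the fit on log10 UMIs, 0.00341), and of 148 of Medulla minus B zone contact 0 did. In B zone contact minus inner spots, genes became 0.585 with contact within 2 steps, 68.2 without spots touching both and 42.0 within the lower piece (-77.5 to 6.54 with 1 section left out). There pc_markers was -0.000185 with medians (-0.000458 to 0.00410 with 1 section left out) and Mo_CD34_SC -0.000367 without spots touching both.

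The other 41 step reversals all concern differences with no shared direction. With 1 section left out, pc_markers ranged from -0.00290 to 0.00238 for 2 minus 3 steps, -0.00304 to 0.00316 for 3 minus 4 and -0.00128 to 0.00129 for 4 minus 5. Mo_Nr4a1_SC ranged from -0.00295 to 0.00193 and -0.00282 to 0.00175 for the last 2, Mo_Inmt_SC from -0.00149 to 0.000759 and -0.000257 to 0.00259, and Mo_CD34_SC from -0.000442 to 0.000152 and -4.35e-05 to 0.00327. With medians, pc_markers was 0.00156 (2 minus 3), Mo_Nr4a1_SC -0.000392 and Mo_CD34_SC 0.000672 (3 minus 4), and Mo_Inmt_SC -0.00179 and Mo_CD34_SC -0.00123 (4 minus 5). On percentile ranks the 3 minus 4 values were -0.303 for Mo_Nr4a1_SC, 0.133 for Mo_Inmt_SC and 0.239 for Mo_CD34_SC. After the fit on log10 UMIs, pc_markers was 0.00113 (2 minus 3) and 0.00410 (4 minus 5), Mo_Nr4a1_SC -7.50e-05 (3 minus 4) and Mo_Inmt_SC -0.000185 (4 minus 5). With GC_Medulla Border counted as medulla, the 3 minus 4 values were -0.000777 (pc_markers), -0.000509 (Mo_Nr4a1_SC), 0.000889 (Mo_Inmt_SC) and 1.16e-05 (Mo_CD34_SC), and the 4 minus 5 values 0.00102 (Mo_Nr4a1_SC), -0.00126 (Mo_Inmt_SC) and -0.000814 (Mo_CD34_SC). Within the upper piece, pc_markers was 0.00237, -0.00252 and 0.00353 for the 3 differences in order, Mo_Inmt_SC 0.00135 and -0.000439 for the last 2, and Mo_CD34_SC 0.00179 (3 minus 4). Within the lower piece, Mo_Nr4a1_SC was -0.00422 (3 minus 4) and Mo_CD34_SC -4.23e-05 (4 minus 5).

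Several values of T zone against other regions shifted after the fit on log10 UMIs over all spots of a section. Regions differ in UMIs, so this fit cannot separate depth from region, and the part of depth was not tested. After the fit on log10 UMIs, T zone minus Medulla was -0.00634 in Mo_GC_vs_Mem, reversed from 0.0258, and -0.0294, -0.0254 and -0.0139 in Mo_Inmt_SC, Mo_Nr4a1Inmt_SC and Mo_CD34_SC. T zone minus B zone was 0.666 points in ribosomal percent, turned from -0.0152 and counted as moved, 0.0341 in pc_markers, -0.0165 in Mo_GC_vs_Mem, -0.0119, -0.0123 and -0.0118 in Mo_Nr4a1_SC, Mo_Inmt_SC and Mo_Nr4a1Inmt_SC, and 0.00493 in Mo_CD34_SC. The ribosomal difference from B zone had no settled sign, at 0.544 points with medians, 1.72 on percentile ranks and -0.289 to 0.168 points with 1 section left out, which were counted as kept. With medians the difference from B zone was -0.00981 in Mo_Nr4a1_SC and -0.00811 in Mo_Nr4a1Inmt_SC. The cause was not tested. Sections C and D had the lowest median UMIs per T zone spot, 3315.5 and 3848, and the precision of single spot values was not measured.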
